A study of Homo sapiens with 12 samples.

Results

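The HEK293T line carrying a short hairpin against HuR (shHuR) was compared with the line carrying a control hairpin (shControl), with treatment as a covariate. All 12 of the 12 libraries of the study entered, 6 from each line. HEK293T is a human embryonic kidney cell line. A lentiviral vector brought each hairpin in and puromycin kept the transduced cells, so the shControl cells carry a vector and a resistance marker too. Within each line 2 biological replicates were left untreated, 2 were given HNE alkyne, a tagged form of the lipid-derived electrophile 4-hydroxynonenal, at 25 µM for 18 h, and 2 were given H2O2, an oxidant, at 225 µM for 18 h. Each line is the selected population of 1 hairpin. An effect of losing HuR, another effect of the hairpin and a difference between the selected populations therefore cannot be told apart in what follows.

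HuR, encoded by ELAVL1, binds AU-rich and U-rich stretches in introns and 3′ untranslated regions. It is known to stabilise many short-lived transcripts and to affect splicing and translation, often in competition with proteins and microRNAs that promote decay. Transcripts of cyclins, growth factors and stress-response genes are among its classical targets.

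The hairpin targets are printed because they define the lines. The shHuR target matched transcripts of ELAVL1 and of no other gene among 206694 GENCODE transcripts searched for an exact match, and the shControl sequence matched 0 genes.

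shHuR target: cccatcacagtgaagtttgca

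shControl sequence: gtcgagctggacggcgacgta

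Gene levels are given as CPM, the count of a gene per 1e+06 counts of the scaled library size. Total counts were 24855946 to 29907256 per library. Genes with at least 1 count numbered 18057 to 18301 in 10 libraries, 17278 in shControl H2O2 replicate 1 and 17524 in shControl HNE replicate 1. Small RNA genes took 1.13% of counts in shControl HNE replicate 2 and 1.05% in shControl untreated replicate 2, and 0.582% to 0.833% in the other libraries. No replicate pair was as alike as a library drawn again (chi-square per degree of freedom 2.94 to 21.7). Of 18 markers of the HEK293 line, KRT19 was at 0 in all libraries. The summed level of the 16 with enough counts to be tested was 919 to 1055 CPM in shControl and 821 to 891 CPM in shHuR. Single markers went both ways. Of the 16, 5 (31.2%) were called higher and 4 (25%) lower over all treatments, beside 14.1% and 15.9% of all genes tested. Their median log2 fold change was 0.08. Of the 36 markers of fibroblasts, blood, endothelium and differentiated epithelium, HBB and TYROBP were at 0 throughout, and 14 had enough counts to be tested, of which 1 was called higher and 2 lower over all treatments. P-values measure the spread between the 2 replicates of each group, which come from the same transduced line. Those of the test over all treatments also take in how far the line difference varied between treatments.

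ELAVL1 itself had 86.0 CPM in the lowest, 92.5 in the median and 99.4 in the highest shControl library. In shHuR these values were 69.3, 70.5 and 74.5 CPM. The 6 shHuR libraries thus lay below all 6 shControl libraries, and ELAVL1 fell by 0.38 on the log2 scale (SE 0.0405, adjusted p = 2.60e-06, edgeR quasi-likelihood test). The fall was called in every treatment.

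**Figure D1:**
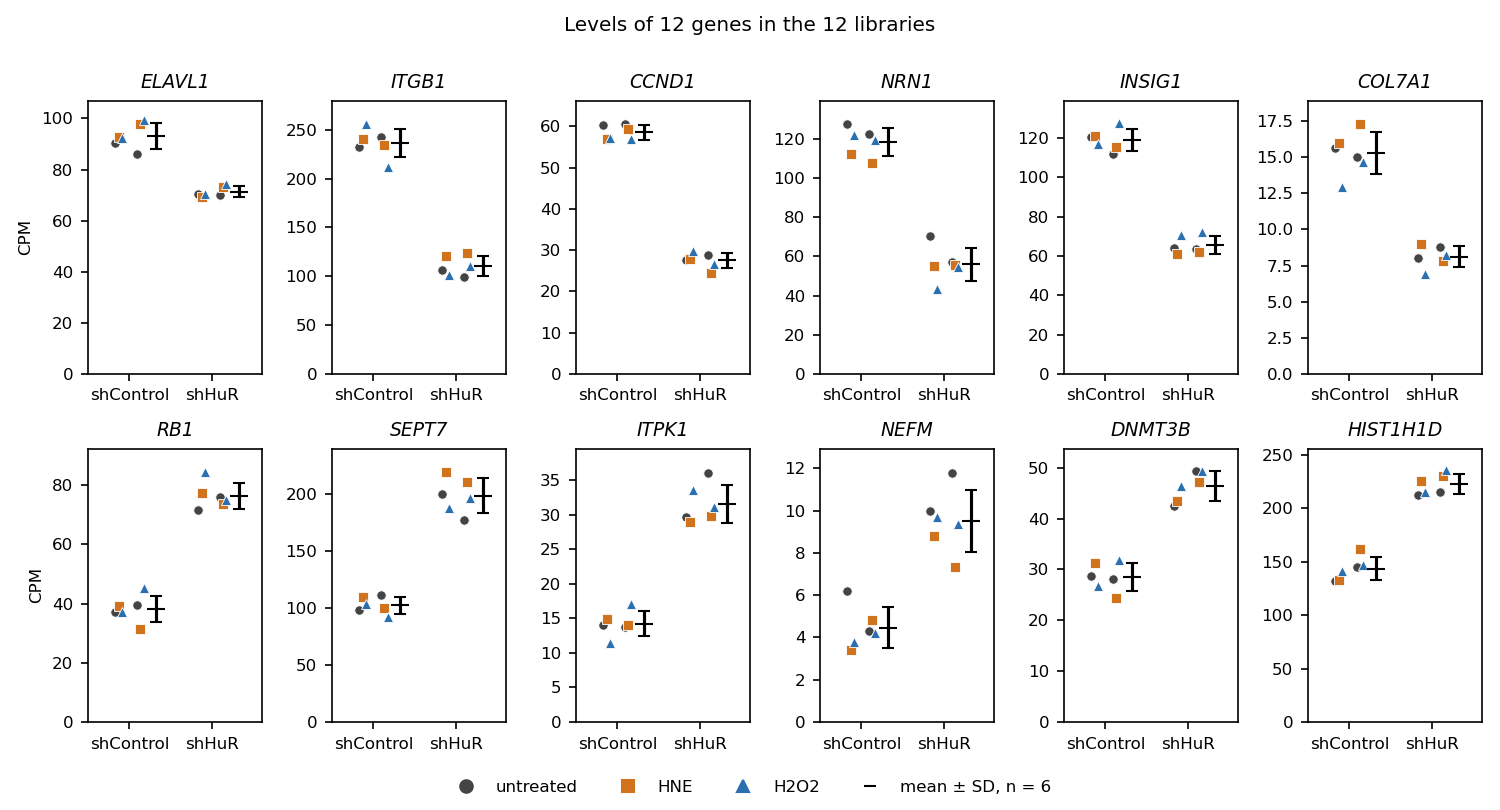
CPM of 12 genes in each library (points, shaped by treatment) with the mean and SD of the 6 libraries of a line (bars). In each of the 12 genes the 6 shHuR libraries lie wholly above or wholly below the 6 shControl libraries, whatever the treatment. All 12 were picked among genes called in every treatment, which largely fixes this separation. Of all genes tested, 12.1% showed it.

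The question was which genes and families differed between the lines in all treatments. A gene was called in every treatment when it passed an adjusted p of 0.05 (edgeR quasi-likelihood test, Benjamini-Hochberg) in the same direction over all 12 libraries and within each of untreated, HNE-treated and H2O2-treated cells. The comparisons within treatments set different libraries against each other, but they were fitted with all 12 libraries and share 1 estimate of the spread. Of 16005 genes tested, 472 (2.95%) met this, 171 (1.07%) higher and 301 (1.88%) lower in shHuR. The wider test over all 12 libraries called 29.9% of genes, 14.1% higher and 15.9% lower. Within single treatments the called share was 7.98% in untreated cells, made up of 3.5% rises and 4.48% falls. It was 8.27% for HNE, from 3.24% rises and 5.04% falls, and 7.19% for H2O2, from 2.52% rises and 4.67% falls. Among the 472 genes the median absolute log2 fold change was 0.48, the smallest was 0.23 and 31 genes changed at least 2-fold. All 6 libraries of one line lay above all 6 of the other in 459 of the 472, against 12.1% of all genes tested (5.25% higher, 6.84% lower in shHuR), a separation that the rule of choice largely fixes. A separate test of whether the line difference itself varied with treatment called 0 genes at an adjusted p under 0.05 (edgeR, lowest adjusted p 0.786), with 677 genes (4.23%) at an unadjusted p under 0.05. DESeq2 called 4. Among the 472 genes, 18 (3.81%) had such an unadjusted p.

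The count rests on pairs of replicates. Leaving out shHuR HNE replicate 1 gave 169 genes and leaving out its replicate 2 gave 116. The count was 177 when shHuR untreated replicate 2 was dropped, and 185 or 183 when shControl untreated replicate 1 or 2 was. Dropping shHuR H2O2 replicate 1 or 2 gave 200 or 216, and dropping shControl H2O2 replicate 1 gave 304. Without the other 4 libraries, one at a time, it ran from 321 to 630. With each treatment fitted on its own 4 libraries, an alternative chosen after seeing the data, it was 163, of which 156 were among the 472.

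Of 110 genes named in the text as called in every treatment, 33 kept that call whichever single library was left out. These were the falls of ITGB1, CCND1, CCND2, CDK6, E2F5, NRN1, PSG4, DHRS3, INSIG1, COL7A1, NEFL, EPHA3, HOXA10 and VARS2. The rises were those of RB1, SEPT7, ITPK1, FCGRT, PTRF, TXNIP, LAPTM4A, SV2A, FZD6, FBN1, HIST1H1D, ATP5G1, HSPA8, HSPA1B, DNAJB1, TMED5, VAMP3, KDELR2 and UBE2K. The other 77 lost it without at least 1 library, ELAVL1 without 6 of 12.

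Of the 472 genes, 19 belonged to a list of 78 tested targets of the hypoxia-inducible factors (HIF), which were set aside. The remaining 453 had varied roles, and 377 of them belonged to none of 40 lists of pathways and families. The 12 largest rises and 12 largest falls outside the HIF list are given next, among genes with at least 5 CPM in the higher line, no overlap between lines and whole-number counts.

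Among the 12 largest falls, ITGB1, the beta1 integrin subunit that pairs with many alpha chains to bind matrix, had 212, 238 and 256 CPM in the lowest, median and highest shControl library and 98.8, 108 and 124 CPM in shHuR. Its log2 fold change was -1.11 (SE 0.0533, edgeR adjusted p = 5.86e-10). CCND1, the cyclin D1 that activates CDK4 and CDK6 in G1, had 56.8, 58.2 and 60.6 CPM in shControl and 24.5, 27.7 and 29.8 CPM in shHuR, a log2 fold change of -1.09 (SE 0.0495, adjusted p = 3.46e-10). Within single treatments the log2 fold change ran from -1.21 to -0.96 for ITGB1 and from -1.15 to -1.01 for CCND1, and no library of one line overlapped the other. NRN1, a membrane-anchored promoter of neurite growth, ranged from 108 to 128 CPM in shControl and from 43.5 to 70.2 CPM in shHuR (log2 fold change -1.09, SE 0.0667, adjusted p = 7.50e-09).

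The steepest of the 12 falls were those of PSG4 and CEACAM1. PSG4, a pregnancy-specific glycoprotein, had 8.22, 12.8 and 13.4 CPM in shControl and 2.93, 3.44 and 4.76 CPM in shHuR, a 3.28-fold difference. CEACAM1, an adhesion receptor of the same wider family, had a median of 5.64 CPM in shControl and 2.45 CPM in shHuR (2.37-fold). These were the 2 members called of 4 tested in the list of pregnancy-specific and carcinoembryonic glycoproteins, and the family's near-identical copies make their counts uncertain. DHRS3, a retinaldehyde reductase, fell 2.33-fold from a median of 19.7 to 8.04 CPM, and MGST1, a microsomal glutathione transferase, fell 2.24-fold from 8.08 to 3.49 CPM. ZC3H6, a CCCH zinc-finger gene, fell 2.21-fold from 37.3 to 16.2 CPM. C6orf57, MST1 (hepatocyte growth factor-like protein, with close pseudogenes), MUM1L1 and the uncharacterised LOC100506714 fell by 1.03, 1.01, 0.96 and 0.97 on the log2 scale. No library of one line overlapped the other in any of these 12 genes, which was a condition of the choice.

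Among the rises, RB1 and SEPT7 act in cell division. RB1, the retinoblastoma protein that holds E2F factors in check, had 31.4, 38.3 and 45.1 CPM in the lowest, median and highest shControl library and 71.7, 75.5 and 84.4 CPM in shHuR. Its log2 fold change was 1.00 (SE 0.0621, edgeR adjusted p = 8.07e-09). SEPT7, a septin of the filaments that form at the cleavage furrow and in neurites, had 91.8, 101 and 111 CPM in shControl and 177, 198 and 219 CPM in shHuR, a log2 fold change of 0.96 (SE 0.0506, adjusted p = 1.72e-09). SEPT7 has pseudogene copies, so its counts are uncertain.

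The other 10 rises had varied roles, NEFM being described with its family. LAPTM4A, a lysosomal membrane protein, rose 1.93-fold from a median of 23.6 to 46.1 CPM, and SV2A, a glycoprotein of synaptic vesicles, rose 1.92-fold from 12.0 to 22.4 CPM. RTN1, a reticulon of the endoplasmic reticulum in neurons, rose 2.18-fold from 3.07 to 6.39 CPM. PTRF, the cavin that coats caveolae, rose 2.08-fold from 11.2 to 23.1 CPM, and FCGRT, the neonatal Fc receptor, rose 2.74-fold from 3.06 to 7.99 CPM. No library of one line overlapped the other in any of these genes, which was a condition of the choice. CYBRD1, a ferric reductase, rose 2.38-fold from 3.60 to 8.14 CPM. TXNIP, an inhibitor of thioredoxin, rose 1.96-fold from 10.3 to 20.9 CPM. ITPK1, an inositol phosphate kinase, rose 2.21-fold from 14.0 to 30.4 CPM, and RASL10B, a small GTPase of the RAS family, rose 2.12-fold, from 2.50 to 4.76 CPM in shControl to 6.96 to 9.13 CPM in shHuR.

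**Figure D2:**
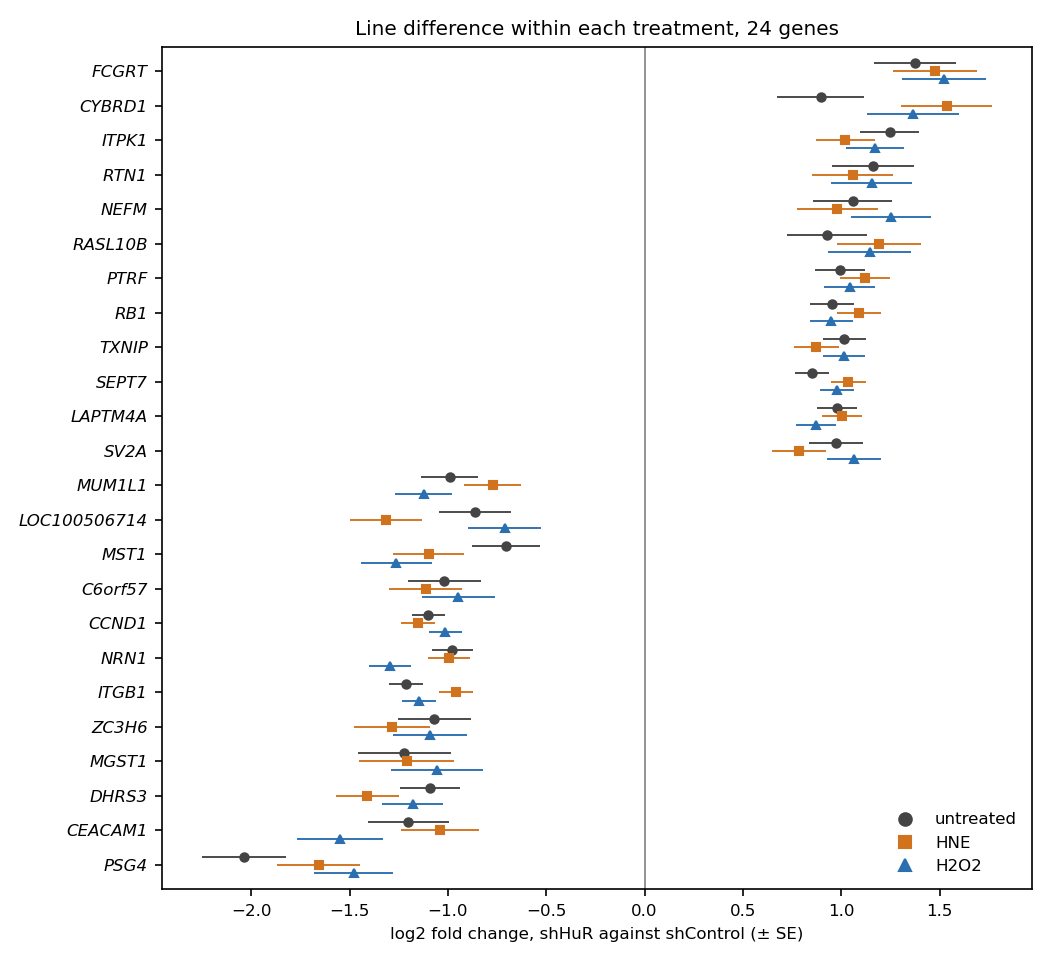
Log2 fold change of shHuR against shControl with its SE, in untreated, HNE-treated and H2O2-treated cells, for the 12 largest rises and 12 largest falls. The 3 estimates of each gene lie on the same side of 0, which the choice of genes required, and range from -2.04 for PSG4 in untreated cells to 1.54 for CYBRD1 with HNE.

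Families were described by how many of their tested members were called over all treatments and in every treatment, and by the members' median log2 fold change, beside a median of -0.0018 over all genes tested. Of all genes tested, 14.1% were called higher and 15.9% lower over all treatments, and 2.95% were called in every treatment. Members named beyond the rule given under processing were chosen after their values were seen.

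CCND1 and RB1 act at the G1 checkpoint, and 4 further genes of that step were picked after their values were seen, so that they are examples and no tally of the pathway. CDK6, a partner of cyclin D1, had a median of 324 CPM in shControl and 182 CPM in shHuR (log2 fold change -0.76, SE 0.049, edgeR adjusted p = 1.17e-08). CCND2, the cyclin D2 gene, went from 265 to 186 CPM (log2 fold change -0.50), E2F2 from 49.1 to 33.7 CPM (-0.58) and E2F5 from 29.1 to 15.8 CPM (-0.89). Genes with CDK symbols as a whole went both ways, with 5 of 27 called higher and 6 lower, as did those with CDKN symbols, with 5 of 11 higher and 2 lower. CDKN1A, the p21 inhibitor of cyclin-dependent kinases, rose from 9.12 to 14.0 CPM (log2 fold change 0.60, SE 0.0695, adjusted p = 6.81e-06). It was the 1 of 27 tested p53 targets called in every treatment, a share of 3.7% near the 2.95% of all genes tested.

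All 27 p53 targets, CDKN1A included, had 5 (18.5%) called higher and 4 (14.8%) lower over all treatments. These shares are near the 14.1% and 15.9% of all genes tested. TP53I3, a p53-induced oxidoreductase, had a log2 fold change of 0.95, and DDB2, a damage-recognition protein, had -0.43. Of replication and mitosis genes 0% and 1.72% were called in every treatment, which in lists of 49 and 58 is near the 2.95% of all genes. Of 49 tested replication genes 14 (28.6%) were called lower and 7 (14.3%) higher over all treatments, beside 15.9% and 14.1% of all genes. POLD1 was at -0.35 and CDT1, the licensing factor, at -0.41, and 0 were called in every treatment. Of 58 mitosis genes 13 (22.4%) were called higher and 10 (17.2%) lower, and KIF20A, a kinesin of cytokinesis, was the 1 called in every treatment (0.37).

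The list of the neuronal cytoskeleton and growth cone held the largest share of members called in every treatment among pathway and family lists with more than 5 tested genes, HIF targets aside. HEK293 cells are known to express neuronal intermediate filaments. Of 41 tested members 9 (22.0%) were called in every treatment, 5 higher and 4 lower, against 2.95% of all genes. Of these 9, only NEFL kept the call with each treatment fitted on its own 4 libraries. NEFL was also the only one to keep it whichever single library was left out. Over all treatments 12 were called higher and 10 lower, and the median log2 fold change was 0.13. The median was 0.03 in untreated, 0.12 in HNE-treated and 0.05 in H2O2-treated cells.

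The neurofilament subunits moved in opposite directions. NEFM, the medium subunit, had 3.40, 4.25 and 6.17 CPM in the lowest, median and highest shControl library and 7.33, 9.55 and 11.8 CPM in shHuR (log2 fold change 1.10, SE 0.113, edgeR adjusted p = 2.03e-06). INA, alpha-internexin, rose from a median of 14.2 to 25.2 CPM (0.80, SE 0.0857, adjusted p = 3.14e-06). NEFL, the light subunit, had 94.7, 102 and 111 CPM in shControl and 66.3, 74.1 and 82.4 CPM in shHuR (-0.47, SE 0.0374, adjusted p = 9.81e-08). No shHuR library of any of the 3 overlapped a shControl library, a separation that being called in every treatment largely fixes.

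Other members called in every treatment were SYP, synaptophysin of synaptic vesicles (0.67), BASP1, a growth-cone membrane protein whose libraries overlapped slightly between lines (0.84), and STMN3, a stathmin that binds tubulin (0.40). ELAVL2, the neuronal paralogue of HuR, went from a median of 41.9 CPM in shControl to 26.2 CPM in shHuR (-0.68, SE 0.0636, adjusted p = 7.04e-07). DPYSL4, a collapsin response mediator, had a log2 fold change of -0.62 and CNTN1, the adhesion protein contactin, one of -0.50. TUBB3, the neuronal beta-tubulin, was called over all treatments (0.67) but not in every treatment.

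Axon guidance genes followed no common direction. Of 66 tested, 5 were called higher and 12 lower over all treatments, and 4 in every treatment. SLIT2, a secreted repellent, rose from a median of 184 to 229 CPM (log2 fold change 0.34, SE 0.0407, edgeR adjusted p = 9.22e-06), while its receptor ROBO2 fell from 26.6 to 30.2 CPM in shControl to 19.5 to 22.3 CPM in shHuR (-0.44, SE 0.0564, adjusted p = 1.82e-05). The ephrin receptors EPHA3 (-0.68) and EPHA6 (-0.54) were the other members called in every treatment. EPHA3 had 40.9 to 48.8 CPM in shControl and 26.6 to 29.6 CPM in shHuR, whereas the lines overlapped in EPHA6, at 14.6 to 22.3 and 10.7 to 14.6 CPM.

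Cholesterol genes are controlled by the SREBP factors, which INSIG proteins retain in the endoplasmic reticulum when sterols are plentiful. Of 30 tested genes of synthesis and uptake, 5 (16.7%) were called in every treatment, 4 lower and 1 higher, a synthesis enzyme. Over all treatments 9 were called lower and 2 higher. Of these genes 1 is a HIF target too, and without it 8 of 29 were called lower, 4 of them in every treatment. The median log2 fold change was -0.08, and -0.02 in untreated, -0.11 in HNE-treated and -0.10 in H2O2-treated cells. INSIG1 had 112, 119 and 128 CPM in shControl and 61.0, 63.7 and 72.4 CPM in shHuR (-0.86, SE 0.0428, edgeR adjusted p = 7.13e-10). STARD4, a cytosolic sterol carrier, had a median of 28.1 CPM in shControl and 17.5 CPM in shHuR (-0.70, SE 0.0628, adjusted p = 4.28e-07). The synthesis enzymes MSMO1 and SQLE fell by 0.40 and 0.33 on the log2 scale. HMGCS1, an early enzyme of the pathway, did not pass the test, with a log2 fold change of -0.04. By role, 5 of 20 synthesis enzymes were called lower and 2 higher, and 4 of 10 genes of uptake and control were called lower and 0 higher.

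Collagens and basement membrane genes were lower more often than higher. Of 64 tested, 21 were called lower and 8 higher (4 to 8 with 1 library left out) over all treatments, and 6 lower and 1 higher in every treatment, with a median of -0.13. Of these genes 5 are HIF targets too, and without them 17 of 59 were called lower, 4 of them in every treatment. COL7A1, the anchoring-fibril collagen, had 12.97, 15.34 and 17.33 CPM in shControl and 6.936, 8.13 and 9.002 CPM in shHuR (-0.91, SE 0.075, edgeR adjusted p = 1.69e-07). COL13A1, a transmembrane collagen (-0.65), AGRN, the proteoglycan agrin (-0.53), and LAMA3, a laminin chain (-0.46), were lower in every treatment. AGRN was 45.5 to 53.5 CPM in shControl and 30.7 to 40.5 CPM in shHuR, and LAMA3 was 56.5 to 69.1 and 39.3 to 48.8 CPM.

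The collagen-modifying enzymes P4HA1 (-0.63) and PLOD2 (-0.45) are both in the HIF list. SERPINH1, the collagen chaperone HSP47, rose from a median of 63.5 to 85.9 CPM (0.40, SE 0.0487, adjusted p = 1.13e-05) and was the only member called higher in every treatment. COL2A1, a fibrillar collagen, was higher over all treatments (0.54). FBN1, fibrillin of the microfibrils, and PXDN, peroxidasin that crosslinks collagen IV, were outside the list and chosen after their values were seen. FBN1 had 24.1 to 28.4 CPM in shControl and 43.3 to 46.3 CPM in shHuR (0.77), and PXDN had 11.9 to 19.7 and 26.3 to 34.3 CPM (0.92).

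**Figure D3:**
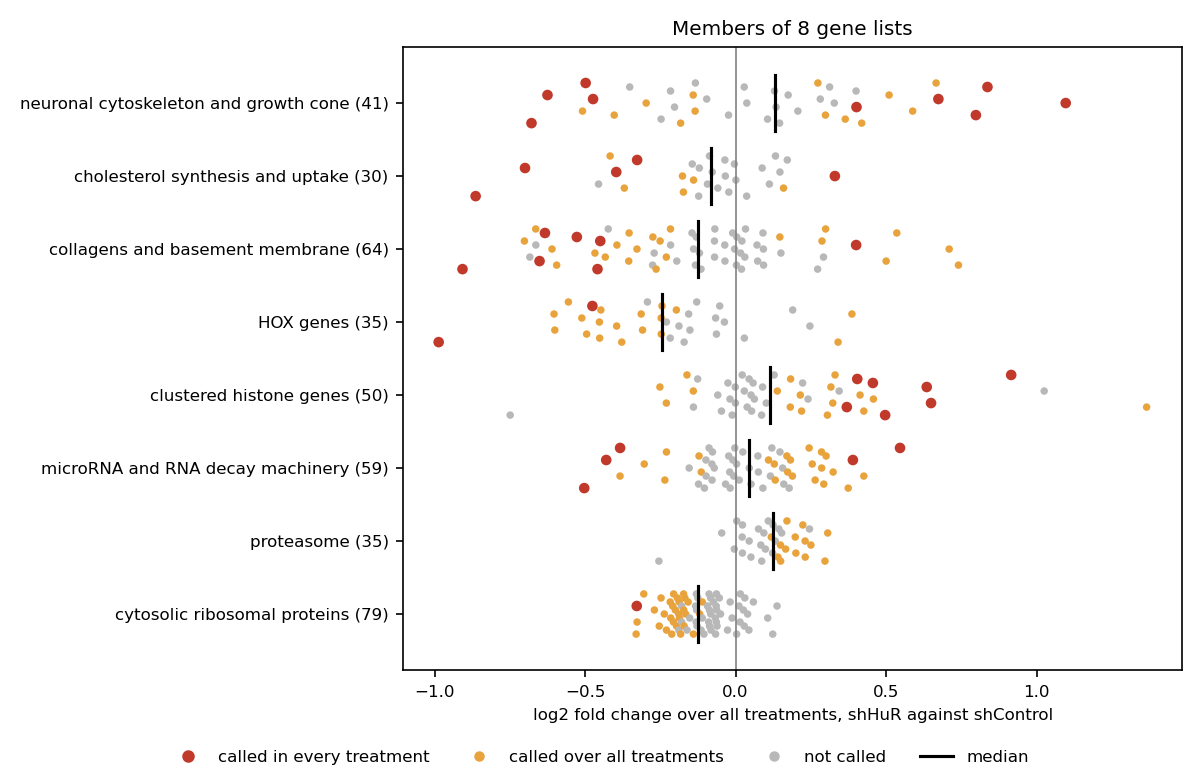
Log2 fold change over all treatments of every tested member of 8 gene lists (points; red, called in every treatment; orange, called over all treatments only; grey, not called) with the list median (line). HOX genes centre at -0.24, proteasome genes at 0.12 with 0 called lower, and the neuronal list spreads to both sides.

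HOX genes encode homeodomain factors that give positional identity along the body axis, and cell types differ in which members are active. Of 35 tested, 18 were called lower and 2 higher over all treatments, a called share of 57.1%, and the median log2 fold change was -0.24. The median was -0.24 in untreated, -0.25 in HNE-treated and -0.26 in H2O2-treated cells. The summed level of the family was 726 to 838 CPM in shControl and 619 to 692 CPM in shHuR, without overlap.

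HOXB7 was lower in every treatment, from a median of 16.1 to 11.8 CPM (-0.48, SE 0.0707, edgeR adjusted p = 8.05e-05). HOXA10 was called in every treatment too, with 94.0 to 108 CPM in shControl and 48.0 to 51.9 CPM in shHuR (-0.99), but its deposited counts were not whole numbers and its level is uncertain. HOXD9 (-0.60), HOXC11 (-0.56) and HOXD10 (-0.45) were lower over all treatments, so the lower members came from all 4 clusters. HOXD8 (0.39) and HOXC13 (0.34) were the 2 called higher. HOXD8 lost its call without the 2 libraries with most small RNA (adjusted p = 0.0537). HOXC13 lost it without shHuR HNE replicate 2, shControl H2O2 replicate 1 or shHuR H2O2 replicate 1, and without the 2 libraries with fewest genes detected (adjusted p up to 0.0747). MEIS1, a DNA-binding partner of HOX proteins outside the list and chosen after its values were seen, fell from a median of 31.5 to 22.2 CPM (-0.51) in every treatment.

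Zinc-finger genes with ZNF symbols, many of which encode repressors with a KRAB domain, were also lower more often than higher. Of 465 tested, 94 were called lower and 29 higher over all treatments (26.5% in all, against 29.9% of all genes). In every treatment 10 (2.15%) were called lower and 0 higher, near the 1.88% lower of all genes tested. The median was -0.05 over all treatments, and -0.11 in untreated, -0.04 in HNE-treated and -0.01 in H2O2-treated cells. ZNF91 had 12.6, 13.8 and 16.0 CPM in the lowest, median and highest shControl library and 6.68, 7.88 and 9.55 CPM in shHuR (-0.81, SE 0.0872, adjusted p = 3.31e-06). ZNF320 (-0.59) and ZNF608 (-0.58) followed. These families hold close copies, so single members are less certain.

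Among polycomb and DNA methylation genes 5 were called higher and 8 lower of 33, 39.4% in all. The 8 became 5 without either untreated shControl library, without shHuR HNE replicate 2 or without either shHuR H2O2 library. DNMT3B, a de novo DNA methyltransferase, had 24.4, 28.4 and 31.9 CPM in shControl and 42.5, 46.9 and 49.4 CPM in shHuR (log2 fold change 0.70, SE 0.0649, edgeR adjusted p = 5.85e-07). EZH1, a catalytic subunit of the polycomb complex, fell from a median of 54.5 to 40.9 CPM (-0.38, SE 0.0491, adjusted p = 2.19e-05). Both were called in every treatment.

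Replication-dependent histone transcripts end in a stem-loop instead of a poly(A) tail and are retained in libraries made, as here, from total RNA depleted of ribosomal RNA. Of 50 tested clustered histone genes 20 were called higher and 4 lower over all treatments, and 7 higher and 0 lower in every treatment (14.0%). The median was 0.12. HIST1H1D, a linker histone, had 132, 143 and 162 CPM in shControl and 213, 221 and 236 CPM in shHuR (log2 fold change 0.64, SE 0.0468, edgeR adjusted p = 4.37e-08). HIST1H3J had 40.4 to 61.8 and 75.0 to 89.8 CPM (0.65), and HIST1H2AE had 4.01 to 6.60 and 9.50 to 12.3 CPM (0.92). HIST1H3F (0.50), HIST3H2BB (0.46), HIST1H3A (0.40) and HIST3H2A (0.37) completed the 7.

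Not all histone genes shared this direction. HIST1H1C, another linker histone, was called lower over all treatments (-0.16) by edgeR, but not by limma on either FPKM scale (adjusted p up to 0.0729). Core histone genes are near-identical within a type, so reads may be divided between copies.

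Proteins of RNA decay are relevant to HuR because several compete with it on AU-rich elements. Of 59 tested genes of microRNA and decay pathways, 19 were called higher and 9 lower over all treatments, and 2 higher and 3 lower in every treatment, ELAVL1 being one of the 3. KHSRP, which recruits decay enzymes to AU-rich elements, had 113, 145 and 170 CPM in shControl and 186, 208 and 241 CPM in shHuR (log2 fold change 0.55, SE 0.0649, edgeR adjusted p = 9.10e-06). CNOT7, a deadenylase of the CCR4-NOT complex, rose from a median of 92.7 to 122 CPM (0.39, SE 0.0392, adjusted p = 1.49e-06).

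AGO4, an argonaute, fell from a median of 50.3 to 37.5 CPM (-0.43) and PAN2, a deadenylase subunit with fractional counts, from 68.1 to 50.5 CPM (-0.50). AGO1 was higher (0.32) and DICER1, which cuts precursor microRNAs and hairpins, lower (-0.23) over all treatments. HNRNPD and TIA1, other binders of AU-rich or U-rich RNA, did not pass the test, at 0.01 and -0.08.

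Genes of protein synthesis and turnover differed by small amounts. Of 79 tested cytosolic ribosomal protein genes 31 were called lower and 0 higher over all treatments, with a median of -0.13, and RPL12 was the only one called in every treatment, at 676 to 715 CPM in shControl and 517 to 577 CPM in shHuR (-0.33, SE 0.0363, edgeR adjusted p = 4.17e-06). The number called lower was 12 to 53 over the alternatives tried, and 20 without shHuR H2O2 replicate 1. The summed level of the family overlapped between lines, at 68567 to 83484 CPM in shControl and 60813 to 71962 CPM in shHuR, and its genes have many processed pseudogenes. Mitochondrial ribosomal protein genes had 23 of 77 called higher and 3 lower and a median of 0.09, and the 1 member called in every treatment, MRPS27, was lower (-0.26).

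Proteasome subunits, which form the protease for ubiquitin-tagged proteins, had 14 of 35 called higher and 0 lower, with medians of 0.13, 0.10 and 0.12 in untreated, HNE-treated and H2O2-treated cells. None was called in every treatment. PSMC5 (0.31), PSMD12 (0.30) and PSMD8 (0.25) were examples, with PSMD12 at 104 to 121 CPM in shControl and 121 to 146 CPM in shHuR. The number called higher was 10 to 22 over the alternatives, with 22 without shControl HNE replicate 2.

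Of 39 aminoacyl-tRNA synthetases, which charge tRNAs, 13 were called lower and 4 higher (2 to 6 with 1 library left out). Lower calls numbered 8 without shHuR HNE replicate 2 and 7 without shHuR H2O2 replicate 1. VARS2, the mitochondrial valyl enzyme, had 61.8, 63.8 and 68.5 CPM in shControl and 42.4, 43.6 and 46.9 CPM in shHuR (-0.55, SE 0.0457, edgeR adjusted p = 1.94e-07), and the mitochondrial isoleucyl enzyme IARS2 was the other member called in every treatment (-0.28). Amino acid carriers had 13 of 30 called higher and 5 lower. The 2 called in every treatment were both lower, SLC6A15, a neutral amino acid carrier of neurons, from a median of 273 to 202 CPM (-0.44), and SLC38A1, a glutamine carrier, from 375 to 308 CPM (-0.33). The carriers SLC1A5 (0.22) and SLC7A5 (0.20) were higher over all treatments.

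In the signalling lists calls went in both directions. Over all genes tested the shares were 14.1% higher and 15.9% lower. In the Wnt list 10 of 52 tested genes (19.2%) were called higher (6 without shHuR HNE replicate 1) and 7 (13.5%) lower. FZD6, a frizzled receptor, was the one called in every treatment, with 17.2, 18.4 and 20.0 CPM in shControl and 32.0, 34.2 and 37.5 CPM in shHuR (0.90, SE 0.0598, edgeR adjusted p = 1.49e-08). The ligand WNT3 had a log2 fold change of -0.91 and the receptor FZD10 one of -0.63 over all treatments. In the TGF-beta and BMP list 8 of 57 (14%) were called higher and 9 (15.8%) lower, near the shares of all genes tested. SKI, a repressor of SMAD signalling, rose (0.43) and BMPR1B, a BMP receptor, fell (-0.51) in every treatment. The BMP antagonist NOG (-0.85) and the targets ID1 (0.44) and ID3 (0.49) changed over all treatments.

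In the Notch list 2 of 33 (6.06%) were called higher and 6 (18.2%) lower, beside 14.1% and 15.9% of all genes tested. JAG2, a ligand, went from a median of 38.7 to 26.5 CPM (-0.57) and HEY1, a target, from 223 to 186 CPM (-0.26), while APH1B, a subunit of the gamma-secretase that cleaves Notch, rose from 9.54 to 14.7 CPM (0.64). All 3 were called in every treatment. Among 17 genes of ERK feedback, 4 were called in each direction, CCND1 being the one called in every treatment, and SPRY2 (-0.42) and SPRED1 (-0.39), feedback inhibitors, were lower over all treatments. YAP1, a cofactor of the Hippo pathway, had 102 to 115 CPM in shControl and 84.0 to 92.8 CPM in shHuR (-0.32, SE 0.0417, adjusted p = 2.61e-05) and was 1 of 2 called of 18.

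The list of MHC class I chains, their relatives such as FCGRT and MICA, and peptide-loading genes had 9 of 26 called higher and 1 lower. Its median was 0.21. Only FCGRT, the neonatal Fc receptor, was called in every treatment. HLA-F (0.44) and MICA (0.41) were higher, while the call of HLA-C as lower (-0.12, adjusted p = 0.0392) was lost in 15 of 24 alternatives, 9 of them the omission of 1 library (adjusted p up to 0.1). Of 32 interferon-stimulated genes 3 (9.38%) were called, below the 29.9% of all genes tested. The list held 42 genes, and the 32 tested summed to only 292 CPM in shControl. The proton pump of lysosomes had 7 of 24 called higher and 0 lower, with ATP6V0D1 at 0.33, while lysosomal genes had 9 higher and 10 lower of 65, a balance that tipped in 15 of 24 alternatives, LAPTM4A rising and GAA, acid alpha-glucosidase, falling (-0.54) in every treatment. The lysosomal counts were 5 higher and 6 lower without shHuR HNE replicate 2, and 6 were lower without shControl HNE replicate 1 or shHuR H2O2 replicate 1. ATP5G1, which encodes the c-ring subunit of ATP synthase, rose from a median of 42.1 to 74.7 CPM (0.80, SE 0.0661, edgeR adjusted p = 1.69e-07) among 84 oxidative phosphorylation genes with 15 called higher (24 without shControl HNE replicate 2) and 7 lower (4 without shControl H2O2 replicate 1), whose median changed sign in 7 of 24 alternatives, and NDUFA9, a complex I subunit, was the other called in every treatment (0.28). Of 140 ion channel genes 13 (9.29%) were called in each direction, below the 14.1% higher and 15.9% lower of all genes tested. TRPC1 (-0.51), TRPM4 (-0.65) and ANO5 (-0.33) fell in every treatment, TRPM4 with overlapping libraries. ATG4D, a protease of autophagy, rose in every treatment (0.44), the only one of 33 autophagy genes to do so. That share, 3.03%, is near the 2.95% of all genes tested. Near it too were MHC class I (3.85%), lysosomal (3.08%), oxidative phosphorylation (2.38%) and ion channel genes (2.14%). Over all treatments 13.8% of lysosomal genes were called higher and 15.4% lower, near the shares of all genes. For oxidative phosphorylation genes these shares were 17.9% and 8.33%.

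**Figure D4:**
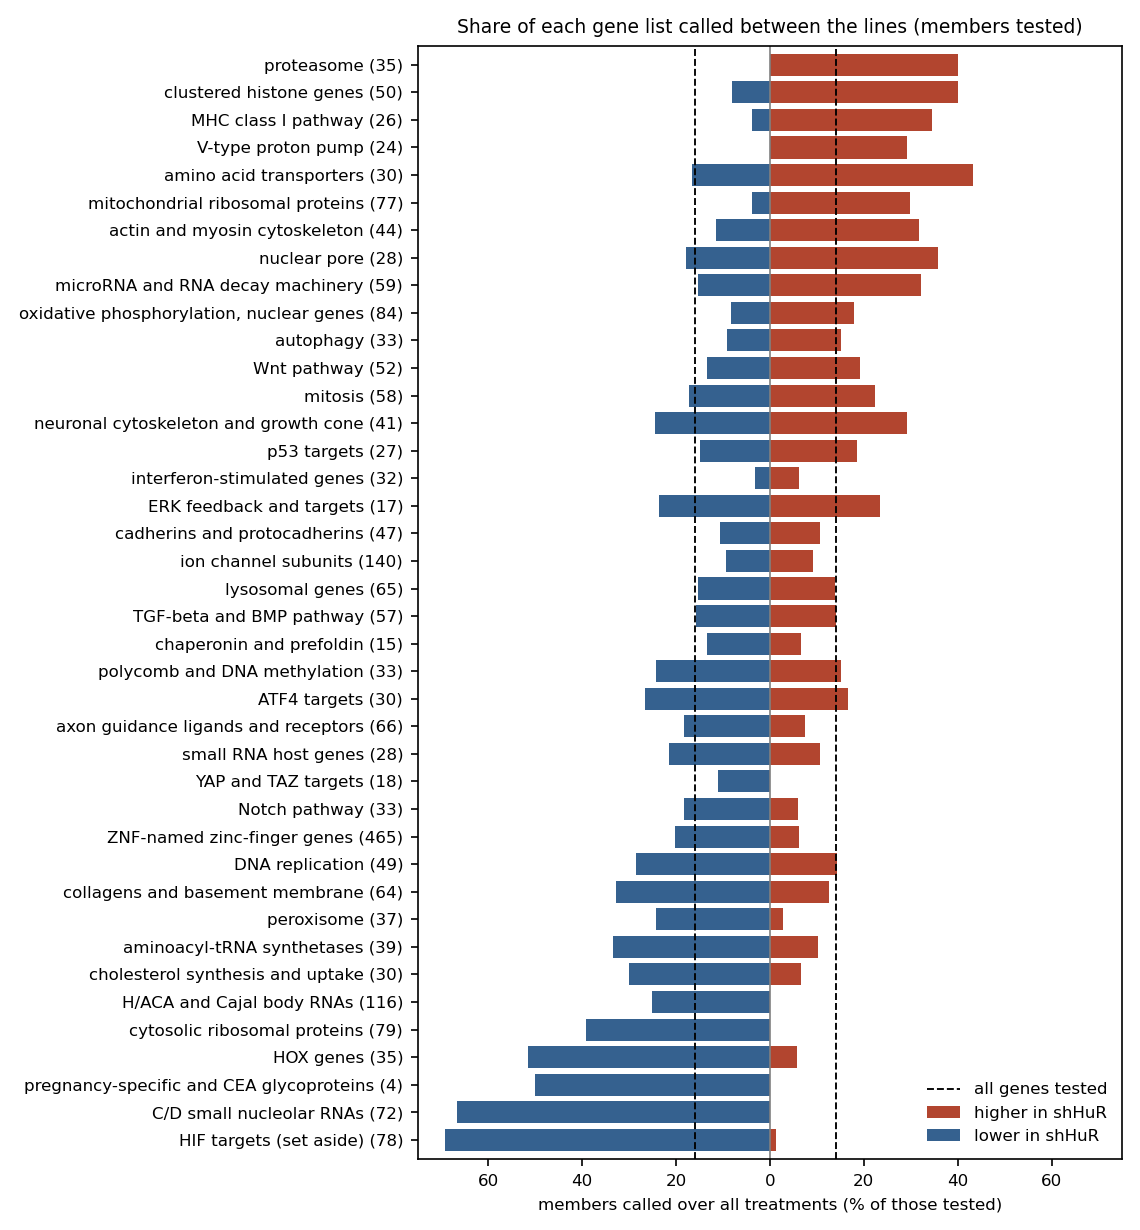
Percent of the tested members of each list called higher (right, red) or lower (left, blue) in shHuR over all treatments, with the number tested in brackets and the shares of all genes tested as dashed lines (14.1% higher, 15.9% lower). Proteasome and histone genes reach 40% higher, and HOX genes 51.4% lower.

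Small nucleolar RNAs guide the modification of ribosomal and spliceosomal RNA and lie in introns of host genes. Of 72 tested box C/D members 48 were called lower and 0 higher over all treatments, with a median of -1.27, and 0 were called in every treatment. The summed level of the family overlapped between lines, at 1489 to 3293 CPM in shControl and 1276 to 1893 CPM in shHuR. Its median was -2.17 with HNE, -0.79 with H2O2 and -0.65 in untreated cells, and the 2 shControl libraries with the largest share of small RNA counts were 1 HNE-treated and 1 untreated library. Without those 2 libraries 26 were called lower and the median was -0.84. With offsets for GC content and length 25 were called lower and 1 higher, with a median of -0.49. Lower calls numbered 31 without shHuR HNE replicate 1 and 28 without its replicate 2. For box H/ACA and Cajal body RNAs 29 of 116 were called lower and 0 higher, against 2 lower without those libraries and 11 to 47 with 1 library left out. With offsets for GC content and length 30 of them were called higher and 12 lower, so that no direction can be given for this group. Host genes of small RNAs were called lower in 6 and higher in 3 of 28.

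**Figure D5:**
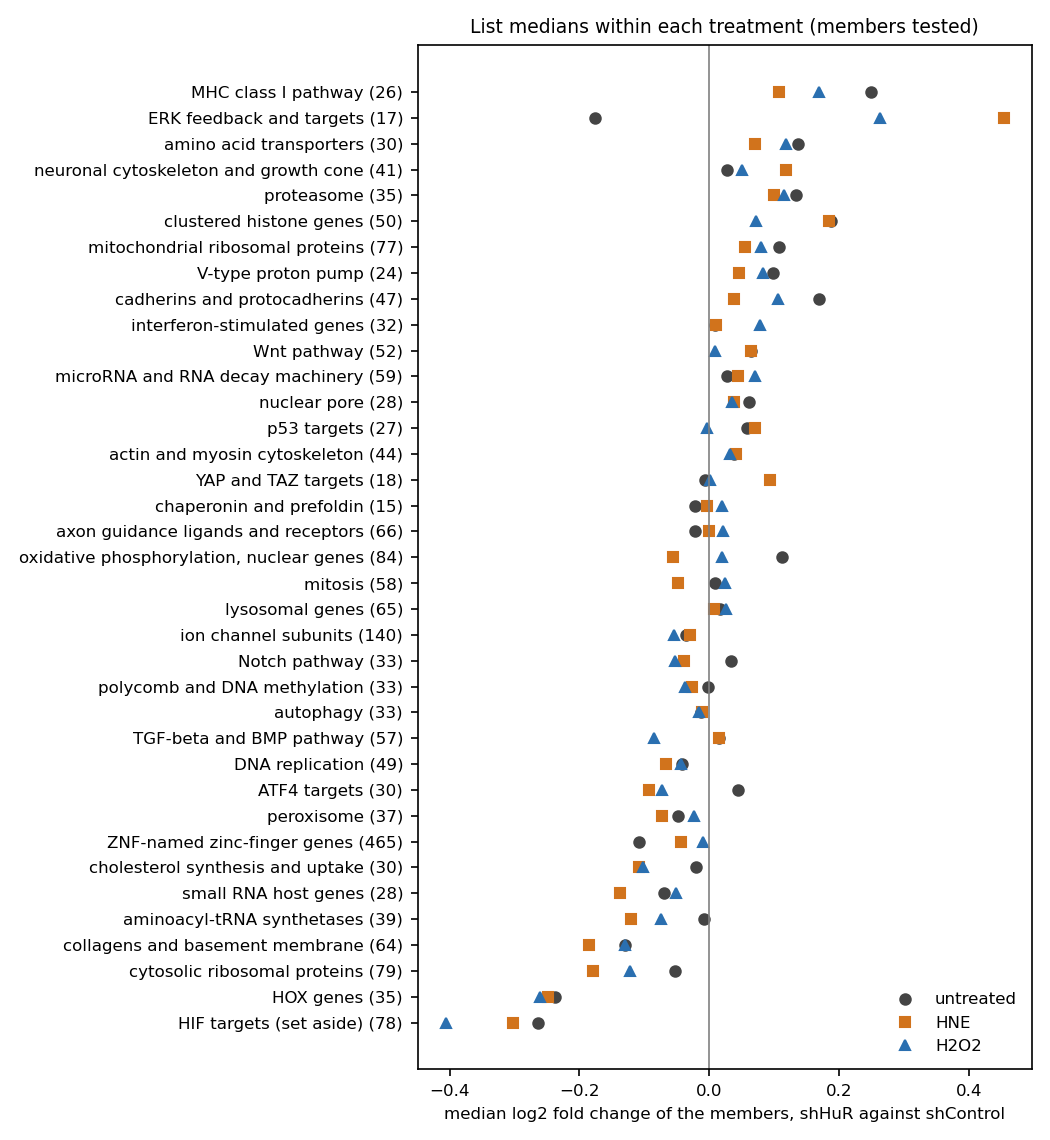
Median log2 fold change of the tested members of lists with at least 15 tested genes, within untreated (circles), HNE-treated (squares) and H2O2-treated (triangles) cells; small nucleolar RNA lists are left out. HOX genes lie between -0.26 and -0.24 in the 3 treatments, whereas ERK feedback genes lie at -0.18 in untreated cells and at 0.45 with HNE. The median of the 17 ERK feedback genes over all treatments, 0.17, changed sign in 2 of 24 alternatives, reaching -0.25.

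Cadherins, actin and myosin genes, nuclear pore subunits, chaperonins, peroxisomal genes and ATF4 targets had 0 members called in every treatment, which in lists of 15 to 47 tested genes is near the 2.95% of all genes. Over all treatments actin and myosin genes were called higher in 14 and lower in 5 of 44. The 14 became 8 without shControl untreated replicate 1 or shHuR HNE replicate 2, and the 5 became 3 without replicate 1 of either H2O2 group. Nuclear pore subunits were called higher in 10 of 28 (6 without shControl untreated replicate 2) and lower in 5 (2 to 5 with 1 library left out). Peroxisomal genes were called higher in 1 and lower in 9 of 37, or in 5 without shControl untreated replicate 2 or shHuR HNE replicate 1. The HIF targets set aside had 54 of 78 called lower and 1 higher, with a median of -0.32.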

How the data were processed

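RNA depleted of ribosomal RNA was sequenced from 12 libraries, and the estimated counts per gene symbol deposited by the authors were used. Per the submitters' processing notes, cutadapt 1.8, Bowtie2 2.2, TopHat2 2.1, Cufflinks 2.2, Cuffnorm and Cuffdiff were used with GRCh37/hg19. The roles of these tools, the annotation and the use of strand in counting are not given in the sources used here, so overlapping genes may share reads. The deposited FPKM values, in the authors' own scaling, served as an alternative.

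Estimated counts were fractional for 2.97% of 23615 genes and were rounded. Groups and replicates came from the sample titles. With edgeR 4.0.16 (R 4.3.3), 16005 genes passed filterByExpr (minimum count 10, by group), libraries were scaled by TMM (factors 0.965 to 1.03), and the quasi-likelihood F-test was used with Benjamini-Hochberg adjustment at 0.05. The line effect over all treatments was fitted with treatment as covariate, those within treatments and the interaction on the 6 group means. Log2 fold changes are shHuR minus shControl. On simulated counts for 16005 genes the test over all treatments recovered 30% of changes of 0.25, 72% of changes of 0.5 and 96% of changes of 2 on the log2 scale. The every-treatment rule recovered 0%, 40% and 74% of these, so small changes escape it. Alternatives were DESeq2 1.42.0, limma 3.58.1 on log2(FPKM + 1) and log2(FPKM + 0.1), other scalings and filters, offsets for GC content and length, a replicate block, the compared groups alone and each library left out.

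The members and lists were chosen with earlier results of these data known, so lists are described by counts and medians, with no test. Named genes were ELAVL1, the 12 largest rises and 12 largest falls, and per list up to 6 called members with the largest change, up to 4 with the highest mean CPM, and the members called in every treatment where these were 1 or 2. A list of the mitochondrial genome had 0 measured genes. Some genes are not reported here by name.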

Additional observations from a re-analysis of the deposited data

Results flagged for a closer look

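In 2 of 50 groups of 6 libraries, for ELAVL1 and the 24 genes of largest change, 1 library lay far from the other 5 by Dixon's criterion, and chance alone gives about 1 in 20. ZC3H6 had 22.36 CPM in replicate 2 of the HNE-treated shControl group, where the nearest other shControl library had 33.06 CPM. MST1 had 5.736 CPM in replicate 2 of the untreated shHuR group, where the nearest other shHuR library had 4.192 CPM. In both genes the 6 libraries of one line still lay apart from the 6 of the other.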

How the results depend on the processing

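The count over all treatments, 4787, stayed between 3922 and 5236 when each library was left out, and within 1.5 times under all other alternatives run. With no filter on low counts the counts were 1949 in untreated cells, 2061 with HNE, 1802 with H2O2, 709 in every treatment and 138 for the interaction, against 1277, 1324, 1151, 472 and 0. Leaving out each library gave 251 to 2040 untreated, 164 to 1874 with HNE, 297 to 1842 with H2O2, 116 to 630 in every treatment and 0 to 2 for the interaction. The HNE groups alone gave 252. The interaction called 4 genes by DESeq2, 4 by limma on log2(FPKM + 1) and 1 on log2(FPKM + 0.1). Requiring 0.5 on the log2 scale in each treatment left 156 genes. With each treatment fitted on its own 4 libraries, chosen after seeing the data, 163 were called in every treatment.

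Chosen after seeing the data, leaving out the 2 shControl libraries with fewest genes detected gave 2746 untreated, 2523 with HNE, 488 in every treatment and 4 for the interaction. Leaving out the 2 with most small RNA gave 662 untreated and 359 in every treatment. The cause of these shifts was not tested.

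Replicate numbers are shared by all groups, but deviations of same-numbered libraries correlated by only -0.107 to 0.129, so the numbers do not pair them. The replicate block gave 4652 genes over all treatments, 405 in every treatment (403 shared with the 472) and 0 for the interaction. Of the 110 named genes called in every treatment 97 were so called with the block, and AGRN, ATG4D, BASP1, CNTN1, GAA, HEY1, JAG2, MEIS1, ROBO2, SLC38A1, TRPM4, UBE2A and UBE2O were not.

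Among genes that did not pass the test, signs near 0 turned. HMGCS1 was at 0.01081 with GC and length offsets, 0.01072 with these and the replicate block, and 0.0004881 without the 2 libraries with most small RNA. HNRNPD was at -0.02204 without the 2 libraries with fewest genes detected and from -0.02251 to 0.06144 with 1 library left out.

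Scaling by library size alone moved the share of higher calls from 47% to 54.6% and the median of all genes to 0.02. Median GC content was 50.7% in genes called higher, 45.6% in those called lower and 48.6% in the rest.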

Other observations

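A few genes of protein folding and the early secretory route were higher in every treatment. They are outside the lists above and were picked because they rose, so they are examples and say nothing of their families as a whole. HSPA8, the constitutive cytosolic HSP70, had 1186 to 1381 CPM in shControl and 1911 to 2261 CPM in shHuR (log2 fold change 0.67, SE 0.0399, edgeR adjusted p = 6.98e-09). Its co-chaperones DNAJB1 and DNAJA1 rose by 0.67 and 0.36 on the log2 scale, and HSPA1B, a stress-inducible HSP70 with a near-identical copy, by 0.82. In the endoplasmic reticulum, HSPA5 (BiP) went from a median of 225 to 340 CPM (0.56) and HYOU1 from 170 to 222 CPM (0.37). The vesicle genes TMED5 and VAMP3 and the retrieval receptor KDELR2 were picked in the same way, TMED5 rising from 98.5 to 174 CPM (0.82), VAMP3 from 47.2 to 87.1 CPM (0.88) and KDELR2 from 123 to 174 CPM (0.53). No library of one line overlapped the other in any of these 9 genes, a separation that choosing genes called in every treatment largely fixes. Their families went both ways over all treatments. HSPA genes had 4 called higher and 2 lower of 13, DNAJB genes 4 and 2 of 11, DNAJC genes 5 and 3 of 29, and TMED genes 3 and 2 of 12.

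Genes were also grouped by the letters at the start of their symbols, for 208 groups of at least 10 tested genes, beside 14.1% called higher and 15.9% lower over all genes. The groups named were picked for their values. Of 41 UBE genes, most of them ubiquitin-conjugating or ligating enzymes, 11 were called higher and 2 lower, with UBE2K (0.57), UBE2A (0.37), UBE2N (0.34) and UBE2O (0.27) higher in every treatment. Of 12 LSM genes 7 were called higher and 1 lower, and of 15 DENND genes 8 lower and 1 higher. MYC, a proto-oncogene transcription factor, went from a median of 102 to 70.9 CPM and ERBB4, a receptor tyrosine kinase, from 13.7 to 7.56 CPM, both lower in every treatment. MYC lost that call with scaling by library size alone and by limma on either FPKM scale. With each treatment fitted on its own 4 libraries MYC lost it too, while ERBB4 kept it.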
